A study of Mus musculus with 6 samples.

Results

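The genes of MHC class II antigen presentation were examined in chronic stroke infarcts of the mouse brain. They are 10 of the 46078 genes in the count tables and were taken by name as the classical class II chains *H2-Aa*, *H2-Ab1* and *H2-Eb1*, the invariant chain *Cd74*, the peptide exchange genes *H2-DMa*, *H2-DMb1*, *H2-DMb2*, *H2-Oa* and *H2-Ob*, and the transactivator *Ciita*. The tissue came from wild type C57BL/6J mice with a listed age of 3 months, which the methods describe as males given a permanent occlusion of the distal middle cerebral artery followed by hypoxia. At 7 weeks after stroke, 3 infarcts and 3 matching areas of the other hemisphere, the contralateral cortices, were taken and sequenced as bulk mRNA. Infarcts were found by eye and cut out, so each library mixes all cells of the piece, and no library from an unoperated mouse was analysed here. The labels number the libraries within a region but do not tie them to single mice, so *p* values measure the spread between these samples. Counts on genes totaled from 12146959 to 13427057 in infarcts and from 11943570 to 19933962 in contralateral cortices. Levels are given as CPM, counts relative to the library total after TMM scaling, with SE for the standard error of a fitted log2 fold change. To be called upregulated or downregulated, a gene had to differ more than 2-fold between regions with an adjusted *p* below 0.05.

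Class II molecules are dimers of an alpha and a beta chain that show peptides from engulfed material to CD4 T cells. The invariant chain guides newly made dimers to endosomes, where cathepsins degrade it until only a fragment is left in the binding groove, and H2-DM swaps this fragment for other peptides while H2-O restrains H2-DM. Dendritic cells, B cells and macrophages carry class II constitutively or after interferon gamma, through the transactivator CIITA, whereas microglia of healthy brain carry little.

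The region labels were checked against marker lists. All 7 cortical neuron markers were downregulated in infarcts, beside 20.9% of all tested genes, with a median log2 fold change of -3.28, and their summed level was 448, 618 and 1163 CPM in infarcts 1, 2 and 3, compared with 7003, 7429 and 8074 CPM in contralateral cortices 1, 2 and 3. Infarct 1 had the lowest neuronal sum and infarct 3 the highest, and no infarct reached the contralateral range. All 9 pan-myeloid markers were upregulated, and so were all 5 markers of fibroblasts and leptomeninges, beside 25.7% of all tested genes. *Ttr*, the defining transcript of choroid plexus, had 0, 3 and 3 counts in infarcts and 0 in each contralateral cortex.

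All 10 class II genes passed the filter on low counts and all 10 were upregulated, where 25.7% of the 15554 tested genes were upregulated, and 0 of 10 were downregulated, where 20.9% of tested genes were. In each of the 10 genes every infarct lay above every contralateral cortex, which held for 37.6% of tested genes. The median log2 fold change of the 10 genes was 6.72, beside 0.03 for all tested genes. Only 5 of the 10, *H2-Aa*, *H2-Ab1*, *Cd74*, *H2-DMa* and *Ciita*, had at least 10 counts in every library, and the other genes passed the filter through their infarct counts. In bulk tissue, more cells that carry class II and more class II RNA per cell cannot be told apart. Together the 10 genes took 0.920% of all gene counts in infarct 1 (95% Wilson interval 0.915% to 0.926%), 0.596% in infarct 2 and 0.439% in infarct 3. In contralateral cortices 1, 2 and 3 they took 0.00322%, 0.00235% and 0.00395%. The intervals cover counting error only, and the infarcts differed from each other by far more than that.

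**Figure D1:**
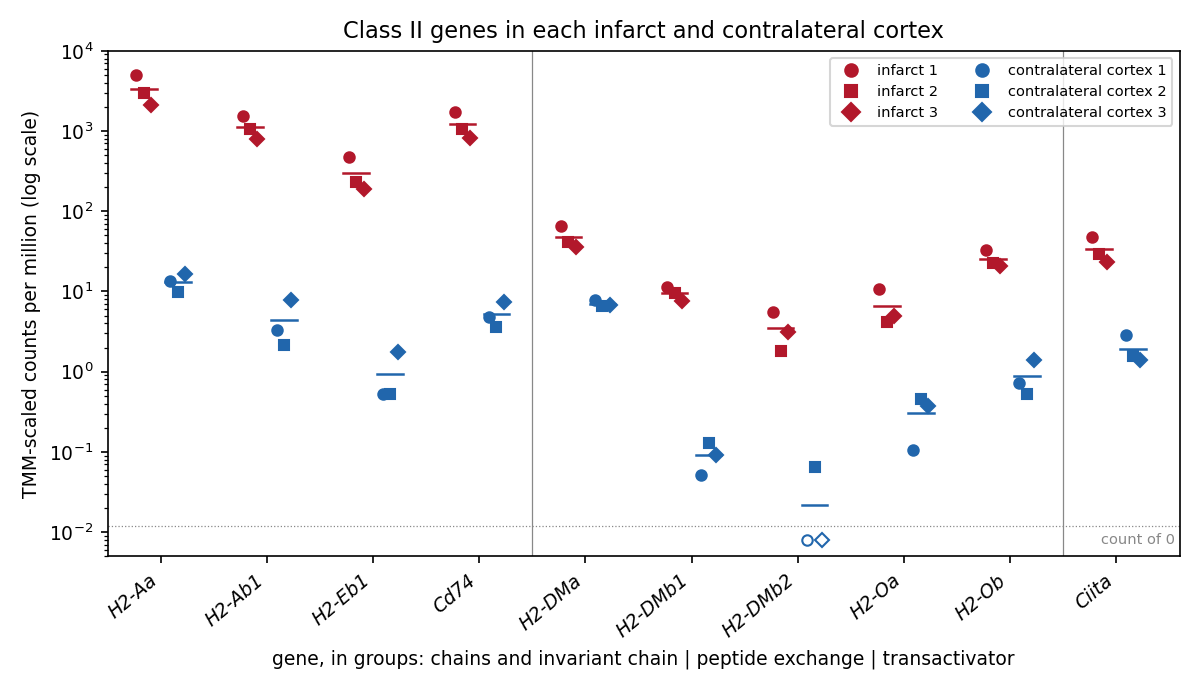
TMM-scaled CPM of the 10 class II genes on a log axis, with each infarct in red, each contralateral cortex in blue and short lines at the means of 3 libraries; open symbols mark a count of 0. For every gene the 3 infarcts lie above the 3 contralateral cortices, and infarct 1 is the highest, at 4971 CPM for *H2-Aa*.

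Of the classical chains, *H2-Aa* (ENSMUSG00000036594, chromosome 17, 34282744 to 34287823, minus strand), the alpha chain of the I-A molecule, was counted most. It had 4971, 3004 and 2124 CPM in infarcts 1, 2 and 3 and 13.4, 9.90 and 16.6 CPM in contralateral cortices 1, 2 and 3. All infarcts were high, infarct 1 above the others. On a log scale, the gap to the contralateral cortices was far wider than the spread within either region. *H2-Aa* had a log2 fold change of 7.99 (SE 0.43, adjusted *p* = 6.78e-07, from the quasi-likelihood test of edgeR after Benjamini-Hochberg adjustment). Its partner *H2-Ab1* (ENSMUSG00000073421, chromosome 17, 34257689 to 34269419), the I-A beta chain, had 1552, 1055 and 787 CPM in infarcts and 3.29, 2.15 and 7.75 CPM in contralateral cortices. The infarcts again stood apart, and contralateral cortex 3 was the highest of its region. *H2-Ab1* had a fitted log2 fold change of 8.05 (SE 0.59; edgeR, adjusted *p* = 1.52e-05), and without contralateral cortex 3 it was 8.68.

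*H2-Eb1* (ENSMUSG00000060586, chromosome 17, 34305867 to 34316674) encodes the beta chain of the I-E molecule, whose alpha chain gene is inactive in the C57BL/6 strain. Its level was 470.3, 232 and 191 CPM in infarcts, and its counts in contralateral cortices were 10, 8 and 19. Infarct 1 had the most, contralateral cortex 3 was again the highest of its region, and the regions did not overlap. The log2 fold change was 8.44 (SE 0.62; edgeR, adjusted *p* = 2.06e-05), the largest fitted value of the 10 genes, and it was 9.13 without contralateral cortex 3. *Cd74* (ENSMUSG00000024610, chromosome 18, 60803848 to 60812652), the invariant chain, had 1737, 1074 and 825 CPM in infarcts and 4.81, 3.58 and 7.48 CPM in contralateral cortices. Its order across libraries was that of *H2-Aa*, with infarct 1 and contralateral cortex 3 highest in their regions. For *Cd74* the log2 fold change was 7.86 (SE 0.43; edgeR, adjusted *p* = 1.17e-06). Among the 3999 upregulated genes, these 4 genes ranked between 114 and 172 by size of the fitted fold change, with *H2-Eb1* first and *Cd74* last of the 4.

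To set chains against each other, levels were divided by the merged exon length of each gene and are given as CPM per exon kilobase. The merged length takes in the exons of every annotated transcript. The size of a ratio between genes, and the order of genes, depends on that length. On this scale the ratio of *H2-Aa* to *H2-Ab1*, the alpha to the beta chain of I-A, was 2.17, 1.92 and 1.83 in infarcts and 2.75, 3.11 and 1.45 in contralateral cortices. The infarct ratios lay inside the contralateral range. The ratio of *Cd74* to *H2-Aa*, also per exon kilobase, was 0.790, 0.809 and 0.878 in infarcts and 0.813, 0.819 and 1.02 in contralateral cortices, again with overlapping ranges. That of *H2-Eb1* to *H2-Ab1* was between 0.290 and 0.400 in infarcts, and contralateral cortices 1 and 3 had 0.210 and 0.299. Only contralateral cortex 1 was outside the infarct range. The proportions among these genes thus overlapped between regions, while their levels did not.

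H2-DM and H2-O, which act on peptide loading rather than presenting peptide, were counted far less. *H2-DMa* (ENSMUSG00000037649, chromosome 17, 34119541 to 34139101), the alpha chain of the exchange catalyst, had 65.0, 40.8 and 36.1 CPM in infarcts and 7.73, 6.51 and 6.74 CPM in contralateral cortices. The contralateral values lay close together, and all infarcts were above them. The log2 fold change of 2.75 (SE 0.25; edgeR, adjusted *p* = 8.94e-06) was the smallest of the 10 genes. Exons of *Brd2* on the opposite strand cover 10.4% of the exon bases of *H2-DMa*, and the strand setting of the counting is not stated. *Brd2* itself was at 63.0 ± 3.83 CPM in infarcts (SD, n = 3), and its part in the *H2-DMa* counts was not tested.

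The beta chain of H2-DM is encoded by the paralogs *H2-DMb1* (ENSMUSG00000079547, chromosome 17, 34153072 to 34160230) and *H2-DMb2* (ENSMUSG00000037548, chromosome 17, 34143307 to 34151555). They share 254 windows of 75 bases, the read length, which are 15.8% of the windows of *H2-DMb1*. Reads from those stretches align to both genes and could be lost from both, so the level of each is uncertain. *H2-DMb1* had 143, 131 and 111 counts in infarcts and 1, 2 and 1 in contralateral cortices. All infarcts were high and all contralateral cortices close to 0, and from these totals the level in infarcts was 107 times the contralateral level (95% exact counting interval 41.4 to 394). The fitted log2 fold change of *H2-DMb1* was 6.61 (SE 0.42; edgeR, adjusted *p* = 9.61e-07).

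*H2-DMb2* had 70, 25 and 46 counts in infarcts and 0, 1 and 0 in contralateral cortices. Infarct 2 was the lowest infarct, and a single read made up the whole contralateral count, so the ratio of 157 carries a 95% exact counting interval of 27.7 to 6228. The fitted log2 fold change was 6.83 (SE 0.85; edgeR, adjusted *p* = 7.48e-05), and it was 8.63 without contralateral cortex 2, 6.21 without contralateral cortex 1 and 6.02 with limma voom. When counts of *H2-DMb1* and *H2-DMb2* were summed before the fit, the log2 fold change was 6.77. Per exon kilobase, the ratio of both beta genes together to *H2-DMa* was 0.529, 0.572 and 0.602 in infarcts and 0.0139, 0.0608 and 0.0281 in contralateral cortices. Contralateral cortex thus held counts assigned to *H2-DMa*, of which the part from *Brd2* was not tested, with next to none of the beta chain. In infarcts the ratio varied little.

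*H2-Oa* (ENSMUSG00000024334, chromosome 17, 34092340 to 34095234) and *H2-Ob* (ENSMUSG00000041538, chromosome 17, 34238903 to 34254414) encode the alpha and beta chain of the H2-DM inhibitor, which is found mainly in B cells and some dendritic cells. *H2-Oa* had 10.7, 4.11 and 4.91 CPM in infarcts, while contralateral cortices 1, 2 and 3 held 2, 7 and 4 counts. Infarct 1 was more than the sum of the other infarcts, and the regions did not overlap. The log2 fold change of *H2-Oa* was 4.44 (SE 0.58; edgeR, adjusted *p* = 1.07e-04). Exons of the antisense gene *BC051537* cover 22.8% of the exon bases of *H2-Oa*; this gene had 1 count in contralateral cortex 2 and 0 in every other library. *H2-Ob* had 32.9, 22.8 and 20.5 CPM in infarcts and 0.731, 0.521 and 1.38 CPM in contralateral cortices. Its infarcts lay closer together than those of *H2-Oa*, and its log2 fold change was 4.91 (SE 0.35; edgeR, adjusted *p* = 2.01e-06).

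Catalyst and inhibitor were compared per exon kilobase. The ratio of both H2-DM beta genes together to *H2-Ob* was 1.63, 1.60 and 1.65 in infarcts, a narrower range than that of either level, and 0.229, 1.19 and 0.213 in contralateral cortices. The contralateral ratios rest on 1 to 3 counts of the H2-DM beta genes per library. For the alpha chains, the ratio of *H2-DMa* to *H2-Oa* was 2.48, 4.05 and 3.00 in infarcts and 30.2, 5.83 and 7.45 in contralateral cortices. Every infarct was below every contralateral cortex in this ratio, where the largest contralateral value rests on 2 counts of *H2-Oa*. No test of these ratios was run.

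*Ciita* (ENSMUSG00000022504, chromosome 16, 10480059 to 10528418) encodes the coactivator without which class II genes are barely transcribed. It had 48.3, 29.2 and 23.3 CPM in infarcts and 2.87, 1.56 and 1.38 CPM in contralateral cortices. Infarct 1 was again the highest infarct, and contralateral cortex 1 was the highest of its region, unlike the classical chains, for which it was contralateral cortex 3. *Ciita* had a log2 fold change of 4.06 (SE 0.37; edgeR, adjusted *p* = 1.75e-05). Exons of *Dexi* on the opposite strand cover 3.45% of its exon bases. Per exon kilobase, *Cd74* was 204, 209 and 201 times the level of *Ciita* in infarcts and 9.50 and 30.7 times in contralateral cortices 1 and 3, with contralateral cortex 2 between them. This ratio barely varied between infarcts, although both genes were about 2 times as high in infarct 1 as in infarct 3, and it did not overlap between regions.

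In order of their mean level per exon kilobase in infarcts, the 10 genes were *H2-Aa* at 886 ± 384, *Cd74* at 722 ± 281, *H2-Ab1* at 441 ± 151, *H2-Eb1* at 153 ± 77.6 and *H2-DMa* at 13.7 ± 4.49 CPM per kilobase (SD, n = 3). Lower levels were those of *H2-DMb1* at 5.67 ± 1.14, *H2-Ob* at 4.72 ± 1.22, *H2-Oa* at 4.67 ± 2.54, *Ciita* at 3.52 ± 1.37 and *H2-DMb2* at 2.01 ± 1.09 CPM per kilobase. The infarct values of *H2-Ab1*, *H2-Eb1* and *H2-DMa* were each separate from those of the next gene down. *H2-Aa* overlapped with *Cd74*, *Cd74* overlapped with *H2-Ab1*, and from *H2-DMb1* down each gene overlapped with the next. Among 15499 genes with an exon length, *H2-Aa* ranked 24, *Cd74* 30 and *H2-Ab1* 39 by mean level per exon kilobase in infarcts, compared with 7646, 8035 and 10115 in contralateral cortices. *H2-DMa* ranked 3050 in infarcts and 9549 in contralateral cortices, where it lay above *H2-Ab1* in 2 of 3 libraries, with *H2-Ab1* to *H2-DMa* ratios of 0.572, 0.443 and 1.55 per exon kilobase. In infarcts these ratios were 32.1, 34.7 and 29.3.

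Other genes of the pathway were followed in 6 lists with 38 genes, of which 34 had enough counts to be tested. Upregulated were 24, where 25.7% of all tested genes were, and downregulated was 1, where 20.9% were, with a median log2 fold change of 2.83 beside the 0.03 of all tested genes. The further class II chain *H2-Eb2* had 330, 183 and 149 counts in infarcts and 0 in every contralateral cortex, so that it was at least 79.3-fold higher in infarcts at a floor of 3 counts per library (adjusted *p* = 7.97e-05, edgeR). *H2-Ea-ps*, the I-E alpha chain pseudogene of this strain, had 0 counts in all 6 libraries. *H2-Eb1* was therefore counted without the transcript of its partner chain.

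The list of factors that bind class II promoters and recruit CIITA held 7 genes. Of these, 1 was upregulated and 1 was downregulated, where 25.7% and 20.9% of all tested genes were, and 5 were not called, with a median log2 fold change of -0.15. *Rfx5*, the DNA-binding subunit of RFX, had 11.6, 11.2 and 9.69 CPM in infarcts and 11.4, 7.42 and 6.74 CPM in contralateral cortices, and the regions overlapped. Its log2 fold change was 0.33 (SE 0.24; edgeR, adjusted *p* = 0.250). The NF-Y subunit gene *Nfya* was upregulated, from 21.8 ± 4.54 to 67.1 ± 11.5 CPM (SD, n = 3), with a log2 fold change of 1.62. *Nfyb*, which encodes another subunit of the same trimer, fell from 63.8 ± 6.85 to 25.9 ± 3.78 CPM, a log2 fold change of -1.30. *Rfxap*, *Rfxank*, *Nfyc* and *Creb1* had log2 fold changes of -0.86, 0.79, -0.21 and -0.15 and were not called. The sign for *Creb1* turned with scaling by library totals, and *Rfxap* was called downregulated without infarct 3, at -1.04.

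Interferon gamma is the main inducer of *Ciita* outside professional antigen-presenting cells, and genes of its signalling are given singly. *Ifng* itself had 2, 6 and 0 counts in infarcts and 0 in contralateral cortices and did not pass the filter on low counts. Without that filter *Ifng* was called upregulated (adjusted *p* = 0.0461), and with DESeq2 it was not (adjusted *p* = 0.176). The receptor gene *Ifngr1* had 135, 89.9 and 77.9 CPM in infarcts and 10.2, 9.18 and 13.7 CPM in contralateral cortices. It was upregulated, at 3.20 in log2 units. Infarct 1 was the highest infarct, as it was for the class II genes. Log2 fold changes were 3.68 for *Irf1*, whose product acts at the *Ciita* promoter, and 4.75 for *Irf8*. The other receptor chain, *Ifngr2*, was at 1.18 and *Jak2* at 1.04, and both lost their calls when tested against a fold change of 2. *Jak2* was also not called without infarct 1, at 0.91, or without contralateral cortex 1, at 0.95. *Jak1*, at 0.66, was not called. *Socs1*, with 20, 5 and 5 counts in infarcts and 1, 2 and 2 in contralateral cortices, did not pass the filter either, and was called upregulated without it and with DESeq2.

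Of 10 genes of endosomal processing, 9 were upregulated, beside 25.7% of all tested genes, with a median log2 fold change of 4.38. *Ctss*, the cathepsin that trims the invariant chain in most antigen-presenting cells, had 1371, 931 and 890.3 CPM in infarcts and 29.3, 26.1 and 32.5 CPM in contralateral cortices. The regions did not overlap, and the log2 fold change of *Ctss* was 5.18 (SE 0.24; edgeR, adjusted *p* = 2.29e-07). *Ctsl*, which takes this role in thymic epithelium, rose from 65.8 ± 11.3 CPM in contralateral cortices to 1889 ± 82.5 CPM in infarcts (SD, n = 3), a log2 fold change of 4.84. Unlike *Ctss*, it was lowest in infarct 1, at 1809 CPM. *Ifi30*, the thiol reductase that opens disulfide bonds of antigens, had the largest log2 fold change of the list, 6.26. Log2 fold changes were 1.94 for *Sppl2a*, the protease that removes the last membrane-bound piece of the invariant chain, 3.08 for *Lgmn*, 3.61 for *Ctsb*, 4.27 for *Ctsd*, 4.49 for *Ctsz* and 4.73 for *Ctsh*. *Ctsf*, at 0.38, was not called.

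Surface turnover and binding partners completed the lists. The ubiquitin ligase gene *March1*, whose product removes class II from the cell surface, had 74.0, 64.6 and 53.2 CPM in infarcts and 37.1, 34.5 and 38.1 CPM in contralateral cortices. Its regions did not overlap, but with a log2 fold change of 0.81 it was not called, while scaling by library totals put it just past the threshold. *Cd83*, whose product opposes MARCH1, was upregulated with a log2 fold change of 2.58, and *March8* with 1.10, though not when tested against a fold change of 2. *Il10*, with 9, 3 and 5 counts in infarcts and 0 in contralateral cortices, did not pass the filter on low counts, and was called upregulated without it and with DESeq2. Of the genes for ligands and receptors of class II and CD74, 5 of 6 were upregulated, beside 25.7% of all tested genes, with a median of 5.65. *Cd4*, the coreceptor that binds class II, had 269, 100 and 84 counts in infarcts and 5, 3 and 1 in contralateral cortices. Infarct 1 held more *Cd4* than the other infarcts together, and its log2 fold change of 5.81 became 5.02 without infarct 1. Log2 fold changes were 5.49 for *Cd44*, 6.99 for *Cxcr4* and 1.98 for *Lag3*. *Cxcr2* had 69, 43 and 39 counts in infarcts and 0, 0 and 1 in contralateral cortices, a ratio of 168 with a 95% exact counting interval of 29.6 to 6667. Its fitted log2 fold change of 6.92 was 8.83 without contralateral cortex 3, 6.28 without contralateral cortex 1 and 6.19 with limma voom. *Mif*, the ligand of CD74, had 117, 91 and 135 counts in infarcts against 202, 106 and 145 in contralateral cortices and was not called (edgeR, adjusted *p* = 0.377).

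**Figure D2:**
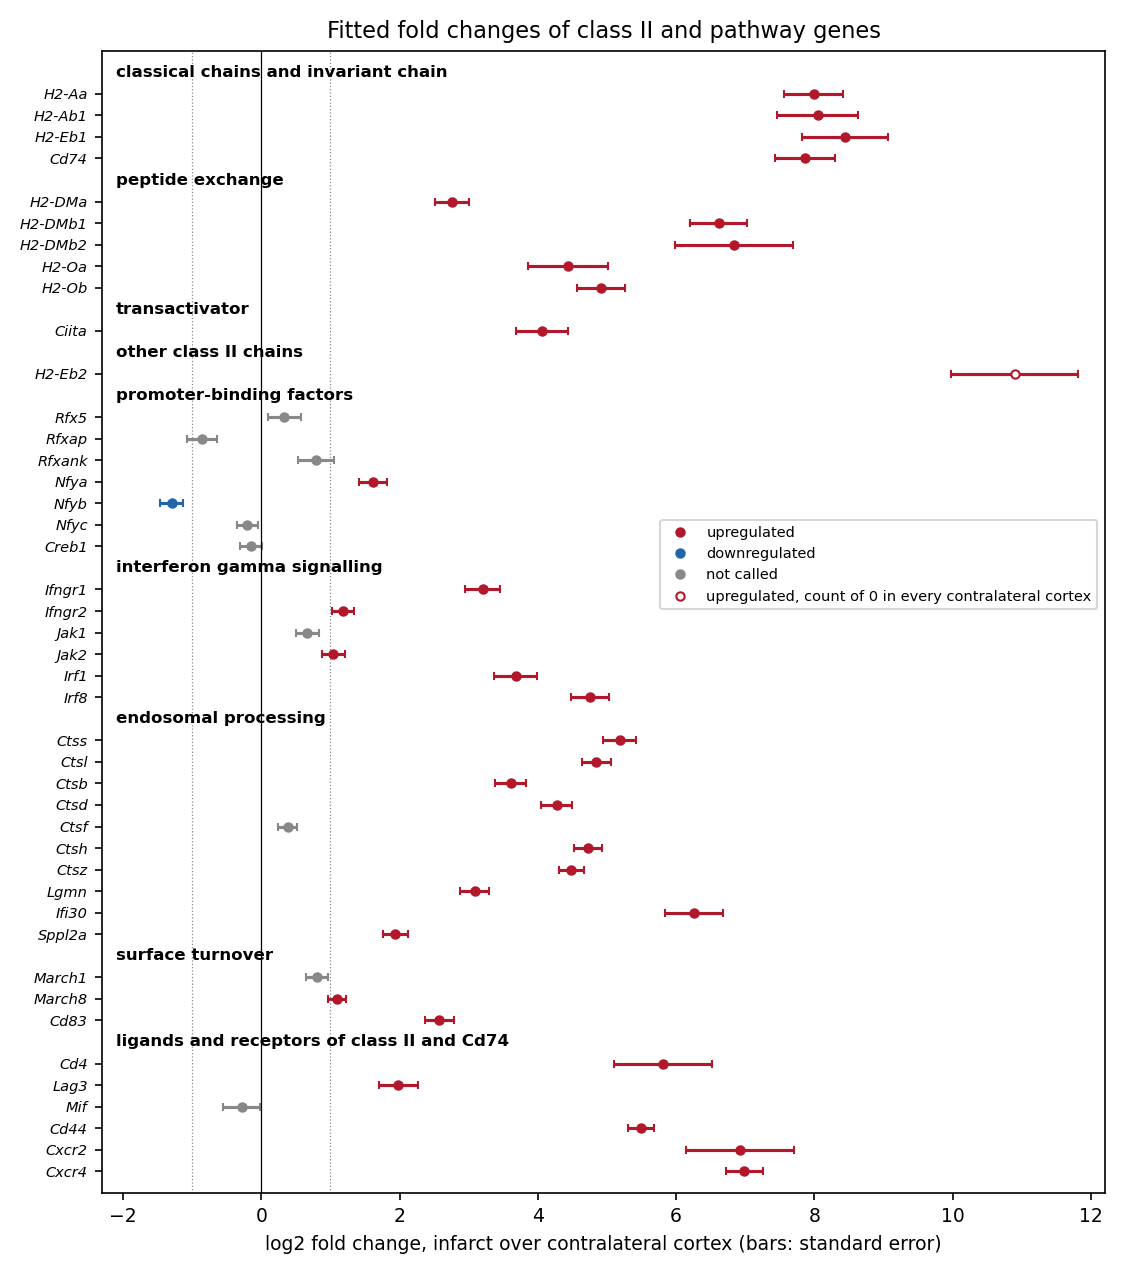
Fitted log2 fold changes of the 10 class II genes and of tested pathway genes, infarct over contralateral cortex, with standard errors as bars, 3 libraries per region, and dotted lines at -1 and 1. *H2-Aa*, *H2-Ab1*, *H2-Eb1* and *Cd74* lie near 8, *H2-DMa* at 2.75, and the promoter-binding factors on both sides of 0; the open symbol, *H2-Eb2*, has a count of 0 in every contralateral cortex, so its fitted value is no bound.

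Marker lists of the cells that can carry class II were read beside these genes, and each count of upregulated markers stands against 25.7% of all tested genes. The summed level of the 4 classical and invariant chain genes was 8730.3, 5365 and 3927 CPM in infarcts 1, 2 and 3 and 22.0, 16.1 and 33.6 CPM in contralateral cortices. The 9 pan-myeloid markers summed to 2325, 1700.0 and 1664 CPM in infarcts and 195, 168 and 220.1 CPM in contralateral cortices, with *Csf1r* most abundant, none at 0, and a median log2 fold change of 4.74. The sum of 7 microglia markers, 879, 865 and 847 CPM in infarcts and 302, 287 and 331 CPM in contralateral cortices, varied little within a region. Of these 7, 3 were upregulated, 4 were not called, and none was at 0. Each of 6 monocyte and macrophage markers was upregulated (median 7.87), with sums of 1569, 1316 and 1124 CPM in infarcts and 63.5, 66.9 and 91.9 CPM in contralateral cortices, mostly from *Fn1*, and *Clec4e* was at 0 in contralateral cortices 1 and 2. Of 5 markers of border-associated macrophages, 4 were upregulated, led by *Mrc1*, and the sums were 297, 201 and 149.9 CPM in infarcts and 30.5, 25.8 and 26.5 CPM in contralateral cortices.

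The dendritic cell list held 8 genes, 6 of them upregulated, with sums of 485.0, 344 and 307 CPM in infarcts and 27.0, 27.2 and 25.4 CPM in contralateral cortices. *Itgax*, which macrophages and reactive microglia also express, made up most of the infarct sum, with 432, 295 and 274 CPM, while *Flt3* and *Zbtb46* were not called, at log2 fold changes of -0.54 and -0.39. *Xcr1* and *Ccr7* each had 1 count over all contralateral cortices. All 8 B cell markers were upregulated, with sums of 320, 162 and 141 CPM in infarcts and 3.81, 2.15 and 2.21 CPM in contralateral cortices. *Ms4a1* was the most abundant of them, at 164, 71.1 and 57.2 CPM in infarcts, and *Blk* was at 0 in every contralateral cortex. Infarct 1 was the highest infarct for both sums, as it was for most other marker sums. The part of these cell types in the class II levels was not tested.

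Lists of other cells were read in the same way, against the same share. All 7 tested T cell markers were upregulated, with sums of 159.6, 60.5 and 39.9 CPM in infarcts and 6.37, 7.29 and 5.81 CPM in contralateral cortices, *Lck* most abundant, and *Cd3d* and *Cd8a* at 0 in every contralateral cortex. *Trbc2* lost its call without infarct 1, where its log2 fold change of 1.69 became 0.91, and without any 1 of the contralateral cortices. All 5 tested plasma cell markers were upregulated, with sums of 2187, 874 and 272 CPM in infarcts, mostly from *Jchain*, and 3.81, 4.49 and 7.29 CPM in contralateral cortices. These lists varied more between infarcts than the class II sum did. Of 5 neutrophil markers, 2 were tested and both were upregulated, led by *S100a8* and with sums of 12.5, 11.0 and 8.26 CPM in infarcts and 0.104, 0.521 and 0.646 CPM in contralateral cortices, while *Ly6g* was at 0 in 5 of 6 libraries. The fibroblast and leptomeninges list summed to 5786, 5257 and 4667 CPM in infarcts, with *Col1a2* most abundant, and to 160.1, 133 and 169 CPM in contralateral cortices. Of 5 endothelial markers, 2 were upregulated, and of 5 astrocyte markers, *Aqp4* was upregulated and *Slc1a2* downregulated, beside 25.7% and 20.9% of all tested genes. Of choroid plexus markers, 2 of 3 tested were upregulated, with sums of 16.9, 14.8 and 23.7 CPM in infarcts and 6.32, 7.16 and 6.74 CPM in contralateral cortices. Both tested red blood cell markers were upregulated, at sums of 30.2, 8.08 and 10.4 CPM in infarcts and 4.28, 0.846 and 3.14 CPM in contralateral cortices, led by *Hbb-bs*, which lost its call without the filter on low counts. The part of these cells and of blood in the class II levels was not tested.

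Class II was also set against the myeloid markers within each library. The ratio of the summed classical and invariant chain CPM to the summed pan-myeloid CPM was 3.75, 3.16 and 2.36 in infarcts and 0.113, 0.0962 and 0.153 in contralateral cortices. Relative to the microglia sum, the ratios were 9.94, 6.21 and 4.64 in infarcts and 0.0728, 0.0563 and 0.101 in contralateral cortices. Neither ratio overlapped between regions. The choice of markers matters, since *Csf1r* made up most of the pan-myeloid sum in contralateral cortices, and the median log2 fold change of the monocyte and macrophage list, 7.87, was close to that of these 4 genes, 8.02. The ratios do not give the level in any 1 cell type.

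The 5 genes outside the pathway with the pattern most like that of *H2-Aa*, *H2-Ab1*, *H2-Eb1* and *Cd74* were *Gpr65*, *Ms4a4b*, *Fgr*, *Ly9* and *Cybb*. Likeness was measured as the Euclidean distance of centered log2 CPM over 6 libraries, among genes with at least 10 CPM on average in infarcts. A prior count of 2 was added before taking logarithms. Distances ran from 0.620 for *Gpr65* to 0.682 for *Cybb*. The distances of the 4 genes to their own mean ran from 0.337 for *Cd74* to 0.527 for *H2-Eb1*, and that of *H2-DMa* was 6.58. *Cybb*, a subunit of the phagocyte NADPH oxidase, had 975, 752 and 542 CPM in infarcts and 2.46, 1.89 and 2.86 CPM in contralateral cortices. Its infarcts and contralateral cortices followed the class II chains in having infarct 1 and contralateral cortex 3 highest. *Gpr65* had 69.9, 67.7 and 48.3 CPM in infarcts, and no contralateral cortex held more than 3 counts of *Gpr65*, *Ms4a4b*, *Fgr* or *Ly9*. At such counts the prior count largely sets the contralateral log2 CPM, so the distances of these genes and their order are uncertain. Fitted log2 fold changes were 8.77 for *Gpr65*, 9.69 for *Ms4a4b*, 10.6 for *Fgr* and 9.02 for *Ly9*, beside 8.31 for *Cybb*.

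The 10 genes were taken by name, so a shared place of those named H2 is no independent result. These 8 lie on chromosome 17 within 224335 bases, from 34092340 to 34316674 on GRCm38, and the other 2 lie on other chromosomes. This stretch holds 13 annotated protein-coding genes, so that 5 are not among the 10. Of these 5, *Tap1*, *Tap2*, *Psmb8* and *Psmb9*, which serve MHC class I, were upregulated, with log2 fold changes of 4.83, 3.55, 5.61 and 4.65. *Brd2*, a chromatin reader next to *H2-DMa*, was the remaining gene. It had 62.4, 67.0 and 59.4 CPM in infarcts and 51.2, 41.5 and 58.7 CPM in contralateral cortices, and was not called, at a log2 fold change of 0.32 (SE 0.16; edgeR, adjusted *p* = 0.109). Within this stretch, fitted fold changes thus differed widely between adjacent genes.

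**Figure D3:**
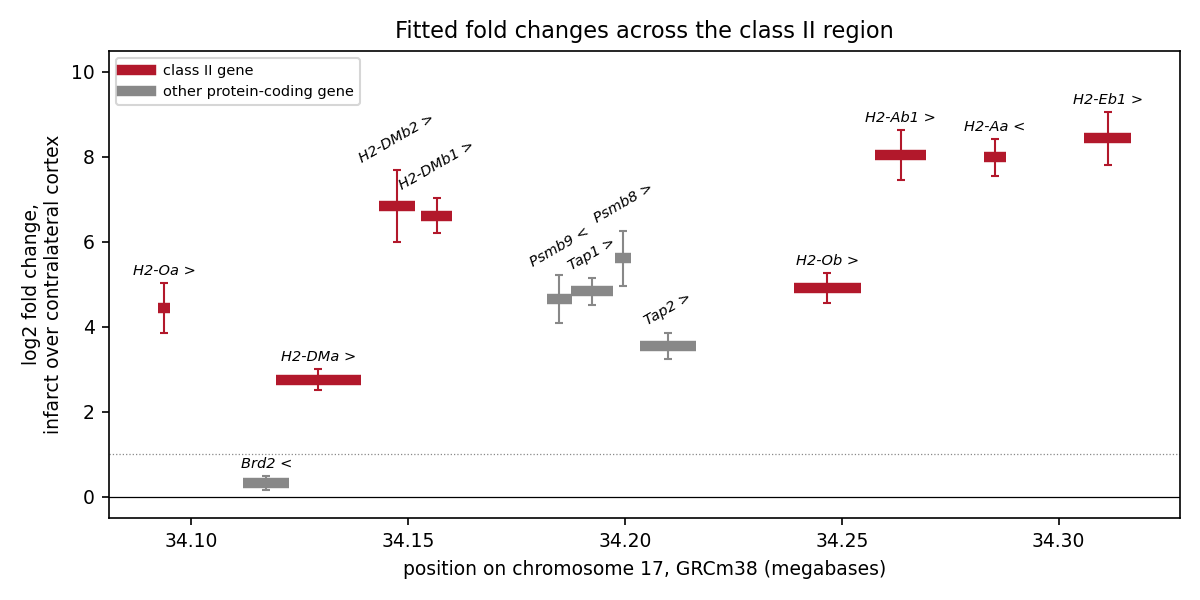
Map of the class II region on chromosome 17 (GRCm38, megabases), with each protein-coding gene drawn from start to end at its fitted log2 fold change, infarct over contralateral cortex, standard errors as vertical bars and strand as > or <. Class II genes in red range from 2.75 for *H2-DMa* to 8.44 for *H2-Eb1*; among the others, in grey, *Brd2* is at 0.32.

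Class II promoters are known for an X box bound by RFX and a Y box bound by NF-Y, which lie near each other and at which CIITA is recruited. As background, promoters of the class II genes were searched on both strands for AGCAAC, letters from the X box, and CCAAT, the core of the Y box. RefSeq promoter windows of 300 bases (GRCm38.p6) were matched for 7 of the 10 genes, in 8 windows. They were not matched for *H2-Ab1*, *Cd74* and *Ciita*. CCAAT was found in 7 of these 8 windows, all but 1 of the 2 windows of *H2-DMa*, and AGCAAC in 3 of 8, where 37.4% and 14.8% of all 32851 windows hold them. AGCAAC followed on the same strand within 40 bases by ATTGG, which is CCAAT read on the other strand, was found in the same 3 windows, those of *H2-Eb1*, *H2-Oa* and *H2-Ob*, and in 0.624% of all windows. It was also found for *H2-Eb2*. The spacing between both motifs was 27, 28, 25 and 27 bases in *H2-Eb1*, *H2-Oa*, *H2-Ob* and *H2-Eb2*. These 4 sequences are printed to show the shared arrangement, 5′ to 3′ on the plus strand, with AGCAAC and ATTGG in capitals. They lie at chr17:34305745-34305866 for *H2-Eb1*, chr17:34092272-34092378 for *H2-Oa*, chr17:34238787-34238904 for *H2-Ob* and chr17:34325512-34325639 for *H2-Eb2*. Those of *H2-Eb1*, *H2-Oa* and *H2-Ob* run to the base before the RefSeq start, and that of *H2-Eb2* ends upstream of it. A match describes letters only.
H2-Eb1: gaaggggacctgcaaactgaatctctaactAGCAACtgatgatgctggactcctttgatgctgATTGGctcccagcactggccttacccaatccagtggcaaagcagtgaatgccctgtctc
H2-Oa: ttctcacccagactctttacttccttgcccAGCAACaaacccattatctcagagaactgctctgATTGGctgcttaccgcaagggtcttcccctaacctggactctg
H2-Ob: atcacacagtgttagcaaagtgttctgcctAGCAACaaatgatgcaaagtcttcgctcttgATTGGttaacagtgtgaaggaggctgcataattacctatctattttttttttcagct
H2-Eb2: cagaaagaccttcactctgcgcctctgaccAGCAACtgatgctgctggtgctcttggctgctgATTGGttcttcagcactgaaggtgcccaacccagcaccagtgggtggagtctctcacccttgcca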

How the data were processed

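Per the paper's methods, the authors made stranded mRNA libraries, sequenced them as paired reads of 75 bases, processed them with bcl2fastq 2.19, Trimmomatic 0.32 and STAR 2.5.2b on GRCm38, and deposited raw counts per Ensembl gene from htseq-count, whose version, annotation and strand setting are not given in the sources used here. Tally entries that name no gene were left out, and between 65.7% and 73.4% of tallied reads were on genes. Identifiers were matched to GENCODE M21 (45229 of 46078, with 849 unmatched), which also gave exon lengths and overlaps.

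Testing was done with edgeR 4.0.16 (R 4.3.3), using filterByExpr, TMM scaling, region as the only model term and robust quasi-likelihood dispersions (common biological coefficient of variation 0.220), with Benjamini-Hochberg adjustment over 15554 tested genes. Calls needed an adjusted *p* below 0.05 together with an absolute log2 fold change above 1. SE was computed as the log2 fold change divided by the root of its F statistic. CPM are TMM-scaled, and with library totals as the scale the median over all tested genes moves by 0.20 in log2 units, so all changes depend on that scale. Where every contralateral cortex had 0 counts, the fold is a bound at 3 counts per library; where at most 3 counts each were present, ratios of summed counts carry exact binomial (Clopper-Pearson) intervals at 95%. No exact permutation test was run, since with 3 against 3 libraries its *p* cannot go below 0.1. The procedure was tested on simulated data. Summaries used Python 3.11.15, pandas 2.3.3, SciPy 1.17.1 and matplotlib 3.10.9.

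The class II genes and all lists (pathway, MHC class I, and 15 marker lists of cell types) were chosen with earlier results of these data known. Genes named are the class II genes, genes of the lists (not all of them), the protein-coding genes of the class II region and the 5 most similar genes; *BC051537* and *Dexi* were added afterwards because they overlap class II genes. Alternatives were DESeq2 1.42.0, limma voom (limma 3.58.1), RLE, upper quartile and library total scaling, other filters on low counts, no fold change threshold, glmTreat, a replicate block, both H2-DM beta genes summed, and each library left out in turn.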

Additional observations from a re-analysis of the deposited data

How the results depend on the processing

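All 10 class II genes remained upregulated with DESeq2, limma voom, RLE, upper quartile and library total scaling, without a filter on low counts, without a fold change threshold, with glmTreat against a fold change of 2, and with each of the 6 libraries left out. When every library had to hold at least 10 counts, only 5 of them were tested, and the count of class II genes called was 5, because the filter removes genes with few contralateral counts. Without infarct 1, which had the highest level of all 10 genes, fitted log2 fold changes ran from 2.47 for *H2-DMa* to 7.98 for *H2-Eb1*. Of the pathway genes, 25 were called, and between 20 and 30 under the alternatives. Over all genes, 7255 were called, between 7194 and 7782 with 1 library left out, and between 5293 (at least 10 counts in every library) and 10111 (no fold change threshold) under all alternatives. Library totals gave 4528 upregulated and 2766 downregulated genes. The labels do not say whether equal numbers are the same mouse, so the numbers were not taken as pairs. Deviations from the region means correlated at -0.190, 0.101 and 0.0011 between libraries of the same number. With 3 libraries per region these values cannot decide whether the libraries share mice. With the number as a replicate block, 10 class II genes, 25 pathway genes and 7167 genes in all were called. Depth limits the low genes, since *H2-DMb1* and *H2-DMb2* rest on 4 and 1 contralateral counts.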

Other observations

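MHC class I, which shows peptides from the cytosol to CD8 T cells, was listed with its own transactivator as 9 genes. All 9 were upregulated in infarcts, where 25.7% of tested genes were, with a median log2 fold change of 4.83. The heavy chain gene *H2-K1* had 511, 326 and 274 CPM in infarcts 1, 2 and 3 and 7.16, 8.66 and 11.3 CPM in contralateral cortices 1, 2 and 3, and *H2-D1* had 733, 614 and 519.7 CPM in infarcts and 15.5, 12.4 and 19.6 CPM in contralateral cortices. Both were highest in infarct 1 and in contralateral cortex 3, as the class II chains were. Log2 fold changes were 5.37 for *H2-K1*, 5.30 for *H2-D1*, 4.19 for *B2m*, the shared light chain, and 3.76 for *Tapbp*. *Nlrc5*, the relative of *Ciita* that activates class I genes, had 63.7, 44.8 and 32.1 CPM in infarcts, while contralateral cortices 1, 2 and 3 held 8, 20 and 5 counts. *Nlrc5* had a log2 fold change of 5.99 (SE 0.45; edgeR, adjusted *p* = 6.59e-06), or 6.72 without contralateral cortex 2. *Psmb8* had 0, 3 and 1 counts in contralateral cortices, and without contralateral cortex 2 its log2 fold change was 6.80 in place of 5.61, and 4.89 without contralateral cortex 1. Whether class I and class II differed in the size of their change was not tested.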
